A study of Mus musculus with 8 samples.

Results

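Libraries from embryos of diabetic dams were compared with libraries from embryos of normal dams, over open and closed neural tube together. The comparison takes all 8 libraries of the series, 4 per dam, and 11779 genes with adequate counts of 26608 listed. A gene had adequate counts when it passed a filter on low values. The filter asks for about 10 counts in as many libraries as 1 group of dam and region holds, whichever groups those libraries belong to. Such a filter also admits genes through 1 group alone, so counts and medians over the genes that passed describe them and support nothing further.

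The embryos were of the FVB mouse strain, at day 8.5 of gestation. Tissue was cut by laser from cryosections next to closure site 1, the place where the neural folds first meet. Open neural tube came from just in front of that site and closed neural tube from just behind it. The 4 groups were diabetic dam with open tissue (libraries 13 and 14), diabetic dam with closed tissue (15 and 16), normal dam with open tissue (9 and 10) and normal dam with closed tissue (11 and 12). All libraries were made from 7 ng of total RNA as SOLiD SAGE libraries, in which a restriction enzyme that cuts at CATG leaves a single short tag for a transcript, towards its 3′ end. The labels leave out how the dams became diabetic, how high their glucose was, the number of embryos and litters behind each library, and any link between open and closed samples. No label states that libraries are from separate embryos. Each p-value therefore reflects only how these libraries spread, which may be technical.

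The neural tube forms when the neural plate bends, its edges rise as folds, and the folds fuse along the dorsal midline. Closure depends on apical constriction driven by actin and myosin, on planar cell polarity, and on dorsal patterning genes such as Pax3. Maternal diabetes is a known risk factor for neural tube defects, and mouse work has tied it to excess glucose uptake through the transporter GLUT2 (Slc2a2), oxidative stress, stress of the endoplasmic reticulum, altered autophagy and low Pax3.

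Several features of the libraries touch the comparison. Totals ran from 5041586 to 16655583 counts, with 9920 to 12924 genes detected per library. Correlations of log levels between libraries were 0.827 to 0.94 within a dam group (median 0.886 over 12 pairs) and 0.8 to 0.929 between dam groups (median 0.858 over 16 pairs), so the ranges overlapped almost fully. All 4 diabetic libraries and normal libraries 9 and 11 held Y-linked RNA, whereas normal libraries 10 and 12 held Xist, the RNA of the inactive X chromosome. Ddx3y, a Y-linked helicase, stood at 192 to 279 CPM (tag counts scaled to the size of the library) in the first 6 and at 0.849 and 0.456 CPM in the other two. Diabetic open library 13 stood apart: Sox2, a neural progenitor factor, was at 30.2 CPM there and at 277 to 559.9 CPM in the other libraries. For many genes below, the log2 difference without library 13 is given too. Where it is not given, the difference may still shift when that library is left out.

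The tags below are those expected for genes on which the comparison turns, so that a reader can see what the counts stand for. They were predicted from GENCODE transcripts of assembly GRCm38 as the 27 bases that begin at the CATG nearest the 3′ end of a principal transcript. For some genes other principal transcripts give another tag. The printed tag was that of 1 of 4 such transcripts for Fst and 1 of 2 for Rps7 and for Nphp4. It was that of 2 of 3 for Tek and 3 of 4 for Igf2. Capitals mark the CATG cut site. The counts used here are per gene rather than per tag and were made on another build, so the match between these tags and the counts was not tested.
Rps7: CATGttgatatgggggcattctgctgc
Rpa2: CATGgccaccgcagattgtgactagac
Hmgb2: CATGccaggcaagtgctgtacctctga
Ube2c: CATGacatctggtgacaaaggaatctc
Fst: CATGtaaatgtgcaatgtatataaaag
Tek: CATGtattgtaaaattttgtagttttg
Trib3: CATGtgcccaataaaagagagctgtgt
Muc1: CATGccctttgtcaagcgcctcaacta
Nphp4: CATGtattttattatactgggattctt
Tmem145: CATGgtctgtggcagaaagacgttttc
Igf2: CATGcattttctggcaaaatccaaagc
Rplp0: CATGctgaacatctcccccttctcctt
Slc2a2: CATGtacttgtgatttttaataaaatt

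In GRCm38 coordinates the Rps7 tag lies in the 3′ UTR at chr12:28630938-28630964 on the minus strand, and the Rpa2 tag in the 3′ UTR at chr4:132778671-132778697 on the plus strand. The Tek tag lies in the 3′ UTR at chr4:94874828-94874854, the Hmgb2 tag in the 3′ UTR at chr8:57515761-57515787 and the Nphp4 tag in the 3′ UTR at chr4:152563107-152563133, all on the plus strand. The Fst tag lies in the 3′ UTR at chr13:114452323-114452349 and the Trib3 tag in the 3′ UTR at chr2:152337438-152337464, both on the minus strand. The Ube2c tag is coding sequence that spans an exon junction between chr2:164770391 and chr2:164771315. The Rplp0 tag is coding sequence and occurs in 3 other annotated genes (Gm6278, Gm8730 and Gm9625), and the Igf2 tag occurs in 1 other (Gm49394), so counts of these genes are uncertain. The remaining tags printed occur in transcripts of no other annotated gene.

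No gene passed the threshold between diabetic and normal dams over both regions. Of the 11779 genes tested, 0 (0%) had an adjusted p below 0.05 in edgeR's quasi-likelihood test, where adjusted p started at 0.938. Without adjustment 536 genes (4.55%) had a p below 0.05, fewer than the 589 expected if no gene differed, with 350 (2.97%) higher and 186 (1.58%) lower with diabetic dams. DESeq2, run on the same genes, called 37 (0.314%), 31 higher (0.263%) and 6 lower (0.0509%), and limma-voom called 0 with 850 at an unadjusted p below 0.05. Genes are therefore given below as values, and "higher" or "lower" describes the libraries only. A separate measure is whether the 4 libraries of one dam all lie above the 4 of the other: this held for 420 genes (3.57%), 271 (2.3%) higher and 149 (1.26%) lower with diabetic dams.

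The spread between libraries was large. The common biological coefficient of variation was 0.894, and the median standard error of a log2 difference was 0.67, against a median absolute log2 difference of 0.43. It was smaller for abundant genes: the median standard error was 1.76 below a mean of 100 counts, 0.42 from 100 to 1000 counts and 0.21 from 1000 counts. The share of genes whose dam groups did not overlap was 3.34%, 3.69% and 3.93% in these classes. Log2 differences were above 0 for 6208 of 11779 genes (52.7%), and their median was 0.04.

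The genes with the smallest p on the higher side included abundant genes of the ribosome and of dividing cells together with a vascular and a red cell gene. The 12 genes were Rps7, Tek, Rpa2, Fst, Ppp6r3, Il17rd, Hmgb2, Itga9, Ube2c, Mtdh, LOC100503203 and Hba-x. In 11 of the 12 the dam groups did not overlap, and in all 12 the difference had the same sign in open and closed tissue. These 12 were chosen by their p, so this describes them and tests nothing. Values below are in CPM and in the order 13, 14, 15, 16 for diabetic dams and 9, 10, 11, 12 for normal dams.

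Rps7, a protein of the small ribosomal subunit, stood at 1910, 1554, 1913 and 1730 CPM with diabetic dams and at 1014, 882, 926 and 1114 CPM with normal dams. Every diabetic library was above every normal one, with no library far from its group. The log2 difference was 0.85 (SE 0.16, adjusted p = 0.938 in edgeR's quasi-likelihood test), and it lay between 0.79 and 0.91 when any 1 library was left out. Over 46 tested members of the cytosolic ribosomal list the median log2 difference was 0.11, with 30 above 0. Rpl18, Rpl24, Rplp0 and Rps7 had an unadjusted p below 0.05, all higher, and Rpl39, Rplp0 and Rps7 did not overlap, against 2.97% and 2.3% of all genes on that side.

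Hmgb2, a chromatin protein of dividing cells, was at 1382, 1119, 988 and 1049 CPM with diabetic dams and at 192, 478, 432 and 598 CPM with normal dams. The groups were apart, and the lowest library was normal open 9. Its log2 difference was 1.44 (SE 0.30, adjusted p = 0.974 in edgeR's test). Rpa2, a subunit of the complex that binds single-stranded DNA during replication and repair, was at 110.3, 139, 126 and 114 CPM against 41.2, 53.8, 33.2 and 61.2 CPM. The difference in Rpa2 was 1.37 (SE 0.26) and had almost the same size in open tissue (1.39) and closed tissue (1.34). Ube2c, the ubiquitin-conjugating enzyme of the anaphase-promoting complex, was at 198, 198, 233 and 222 CPM against 102, 129, 128 and 98 CPM, a difference of 0.89 (SE 0.19).

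The lists to which these genes belong stood near the median of all genes. Of 48 tested DNA replication genes, 20 were above 0 and the median was -0.09. Pcna, the sliding clamp of replication, differed by 0.02 (SE 0.17), and the ligase Lig1 was lower without overlap (-0.25, SE 0.15). Of 44 tested mitosis genes, 25 were above 0 with a median of 0.05; Cdk1 differed by 0.12 (SE 0.19), Tpx2 was higher without overlap (1.11, SE 0.43) and Cenpf lower without overlap (-0.42, SE 0.19).

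Fst, the follistatin gene, encodes a secreted inhibitor of activin and some BMPs. It was at 123, 76, 120.1 and 54.8 CPM with diabetic dams and at 29.1, 22.6, 32.3 and 33.1 CPM with normal dams. The normal libraries were close together and all below the diabetic ones, and the log2 difference was 1.68 (SE 0.33). Il17rd, a membrane inhibitor of FGF signalling also called Sef, was at 10.2, 110.2, 23.6 and 13 CPM against 7.24, 1.53, 0.363 and 0.912 CPM. Diabetic open library 14 was far above its group, and the groups did not overlap (log2 difference 4.20, SE 0.85). Ppp6r3, a regulatory subunit of protein phosphatase 6, differed by 1.43 (SE 0.29), the integrin subunit Itga9 by 2.52 (SE 0.54, or 1.89 without library 13) and Mtdh by 0.86 (SE 0.19), each without overlap.

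**Figure D1:**
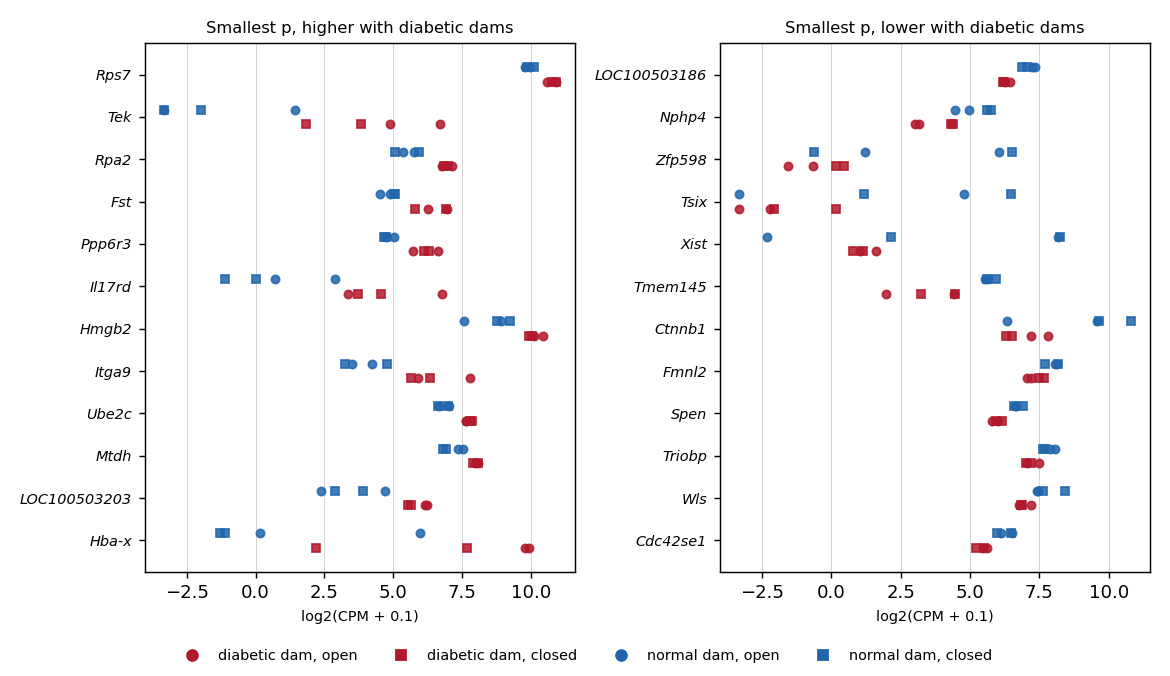
CPM of the 12 genes with the smallest p in each direction, on a log2 axis after adding 0.1, with 1 point per library (red for diabetic and blue for normal dams, circles for open and squares for closed tissue). Rps7, Rpa2 and Ube2c form tight groups that do not overlap, whereas Tek, Hba-x and Il17rd spread over several log2 units, and Zfp598, Tsix and Xist are high in 1 open and 1 closed normal library.

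On the lower side, 8 of the 12 genes did not overlap between dams. They were LOC100503186, Nphp4, Tmem145, Fmnl2, Spen, Triobp, Wls and Cdc42se1. The other 4 were Zfp598, Tsix, Xist and Ctnnb1. Zfp598, a ubiquitin ligase gene of ribosome quality control, was at 0.53, 0.235, 1.01 and 1.26 CPM with diabetic dams and at 2.21, 66.1, 0.545 and 91 CPM with normal dams. It was high in the 2 normal libraries that hold Xist, as were Tsix and Xist themselves. Among the 6 libraries with Y-linked RNA the log2 difference of Zfp598 was -1.10 in place of -5.82, and that of Xist was 0.55 in place of -6.11. Mapk8ip3, Prkab1 and Rfc3, chosen after their values were seen, also had their highest levels in normal libraries 10 and 12: Mapk8ip3 stood at 64.9 and 35.1 CPM there and at 0.117 to 1.26 CPM in the other libraries. With a covariate for whether a library held Xist or Y-linked RNA, the log2 difference was 0.33 for Xist and -1.41 for Tsix. The part of embryo sex in these values was not tested beyond this.

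Nphp4, a scaffold of the ciliary transition zone, was at 7.88, 8.93, 19.8 and 21 CPM with diabetic dams and at 21.7, 31.4, 53.6 and 48.2 CPM with normal dams. Within each region the diabetic libraries were well below the normal ones, and closed tissue was above open tissue for both dams. The log2 difference was -1.49 (SE 0.36, adjusted p = 0.999 in edgeR's test). Tmem145, a membrane protein gene, was at 3.77, 21.4, 9.28 and 22 CPM against 46.8, 50.3, 49.2 and 60.6 CPM (log2 difference -1.88, SE 0.52). Wls, the carrier that brings Wnt proteins to the cell surface, was at 145, 108, 115 and 117 CPM against 169, 175, 196 and 341 CPM (-0.82, SE 0.25). Spen, a repressor that also binds Xist RNA, was at 55.5, 64.3, 61.1 and 71.6 CPM against 99.1, 102, 96.4 and 120.1 CPM (-0.73, SE 0.22), and the actin regulator Fmnl2 differed by -0.68 (SE 0.20).

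Ctnnb1 encodes beta-catenin, the effector of canonical Wnt signalling and a partner of cadherins. Its counts were at 225, 146, 79.1 and 90.9 CPM with diabetic dams and at 773, 79.7, 803 and 1788 CPM with normal dams. Normal open library 10 lay within the diabetic range, so the groups overlapped, and the other 3 normal libraries were several times higher. The log2 difference was -2.56 (SE 0.75), with -1.20 in open and -3.93 in closed tissue.

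A further set of low-level genes had the widest gaps between dam groups. Trib3, a pseudokinase induced by stress of the endoplasmic reticulum and by amino acid shortage, was at 3.41, 4.82, 3.83 and 5.45 CPM with diabetic dams and had no count in any normal library. With 157 counts against 0, and 3 counts over the normal group as the floor, it was at least 38.8-fold higher, which covers counting error only. Inpp5b, an inositol polyphosphate phosphatase, and Mgat4b, a glycosylation enzyme, were likewise at 0 in all normal libraries and at least 37.8-fold and 35.4-fold higher. The ion transport regulator Fxyd6 had 152 counts against 2 (ratio 56.4, 95% exact interval 15.3 to 470.0), and Slc7a7, a cationic amino acid transporter subunit, 127 against 1 (94.3, 16.6 to 3752). Rplp0, a ribosomal stalk protein, was at 10, 10.6, 15.3 and 6.29 CPM against 0.704, 0, 0 and 0.152 CPM. Its predicted tag occurs unchanged in 3 other annotated genes, so its counts are uncertain.

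In the opposite direction, Muc1, an epithelial mucin, had 1 count with diabetic dams and stood at 2.51, 4.42, 3.81 and 2.58 CPM with normal dams. That is 89 counts against 1, a ratio of 119.9 with a 95% exact interval of 21 to 4789. Grb14, an adaptor that inhibits the insulin receptor, was at 0.883, 0, 0.605 and 2.24 CPM against 5.73, 15.1, 5.63 and 5.17 CPM. Hif3a, a hypoxia-inducible factor subunit that can act as an inhibitor, was at 3.59, 4.35, 1.01 and 1.26 CPM against 8.04, 12.1, 8.54 and 7.29 CPM. Zfp426 and 4932415G12Rik had log2 differences of -2.70 (SE 1.20) and -2.70 (SE 1.30, or -3.90 without library 13), and Tmem145, given above, was the sixth gene of this set. These levels are low, at most 24.8 CPM in any library outside Tmem145. Normal open library 10 had no count for 55 of the 5576 genes that had at least 50 counts in each of the other 7 libraries, and diabetic open library 14 for 22 of 5352. The part of such losses in the gaps was not tested.

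Endothelial markers were higher in the diabetic libraries, most of all in library 13, and markers of other tissue beside the neural tube varied between libraries. Of 24 endothelial markers, 23 had a count and 17 were tested; 15 of the 17 were above 0, 8 had an unadjusted p below 0.05 and 5 did not overlap (Cldn5, Esam, Sox17, Tek and Tie1), all on the higher side, where 2.97% and 2.3% of all genes tested did so. The summed endothelial level was 109 to 587 CPM with diabetic dams and 69.1 to 105 CPM with normal dams. In bulk tissue, more cells of a type and more RNA per cell cannot be told apart.

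Tek, the angiopoietin receptor of endothelial cells, was at 104, 29.6, 3.43 and 14.1 CPM with diabetic dams and at 2.61, 0, 0 and 0.152 CPM with normal dams. Every diabetic library exceeded every normal one, open tissue more than closed. The log2 difference was 5.84 (SE 1.10, adjusted p = 0.938 in edgeR's test and 3.18e-05 in DESeq2) and 5.50 without library 13. Tie1, the related orphan receptor, was at 14.2, 8.22, 6.86 and 5.31 CPM against 3.92, 0, 0 and 0 CPM. Egfl7, a protein secreted by endothelial cells, was at 140.1, 87.6, 47.8 and 56.2 CPM against 50.8, 46.9, 37.6 and 26.6 CPM (0.96, SE 0.28), and closed library 15 overlapped with normal open 9. The median over the 17 tested endothelial genes was 3.86, and 1.89 without library 13. Most of that median comes from genes with few counts, since the 4 members with a mean of at least 100 counts had a median of 1.00.

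Paraxial mesoderm forms the somites beside the neural tube. Of 24 markers 18 were tested; 17 were above 0 and 6 had an unadjusted p below 0.05 on the higher side, where 2.97% of all genes did so (Foxc1, Foxc2, Pax1, Pdgfra, Twist1 and Uncx), yet no member was free of overlap. Pdgfra, the receptor of mesenchymal cells for platelet-derived growth factor, was at 466, 65, 149 and 159 CPM with diabetic dams and at 30.5, 31.1, 90.4 and 55.5 CPM with normal dams. Library 13 was highest, diabetic open 14 was below normal closed 11, and the difference was 2.09 (SE 0.60), or 1.08 without library 13. Twist1, a mesenchymal transcription factor, was at 310, 111, 72.2 and 102 CPM against 15.3, 48.6, 73.2 and 22 CPM (1.80, SE 0.58; 1.26 without library 13). The median over the 18 was 1.76, and 0.90 without library 13, with 2.40 in open and 1.08 in closed tissue. The summed level, at 2020, 332, 1082 and 835 CPM against 169, 455, 534 and 408 CPM, placed diabetic open 14 within the normal range.

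Primitive red cells showed a different distribution over libraries. Hba-x, the embryonic zeta globin, was at 874, 978, 4.44 and 204 CPM with diabetic dams and at 62.7, 1.02, 0.363 and 0.304 CPM with normal dams. Both diabetic open libraries were high, and closed library 15 was below normal open 9. The other embryonic globin tested, Hbb-bh1, followed at 22.8, 11.6, 0 and 5.17 CPM against 1.71, 0, 0 and 0 CPM. Epor, the erythropoietin receptor, went the other way, with 0 counts with diabetic dams and 84 over 3 of the 4 normal libraries (at least 37.7-fold lower, and 16.5-fold without normal open library 10, which holds most of them). Of 8 tested red cell genes, 6 were above 0.

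Lateral plate and cardiac genes came almost wholly from library 13. Their summed level was 286 CPM there, 0 to 19 CPM in the other diabetic libraries and 5.23 to 10.7 CPM with normal dams. Gata4, a factor of heart and gut mesoderm, was at 86, 0, 4.44 and 0.559 CPM against 0.101, 0.17, 0 and 0 CPM, so closed library 15 also had counts and open library 14 had none. With 1487 counts against 2 the ratio was 552 (95% exact interval 152 to 4561), and 17.6 without library 13. Markers of gut endoderm had a summed level of 83.6 to 113 CPM with diabetic and 57.9 to 124 CPM with normal dams, so these ranges overlapped. Of 10 tested members 7 were above 0, with a median of 1.83, and 2.11 without library 13. The members farthest above 0 had few counts (Foxa3 and Pyy had none with normal dams), and Sox17 and Gata6 also stand in the endothelial and cardiac lists.

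**Figure D2:**
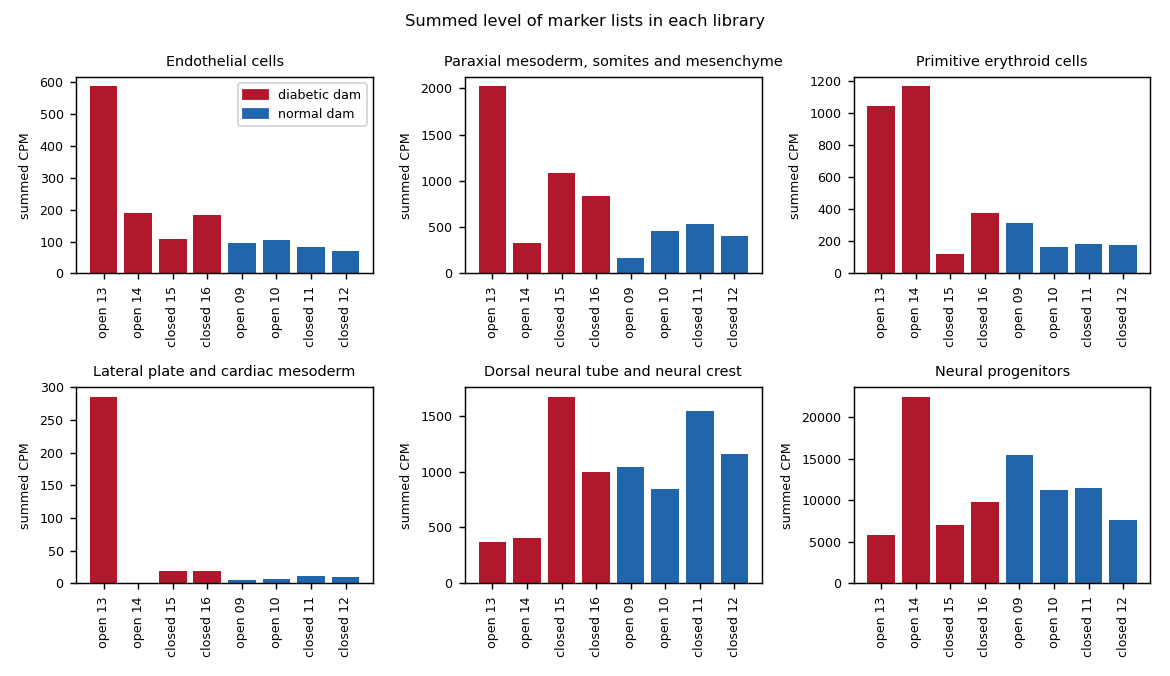
Summed CPM of 6 marker lists in each library, with red bars for diabetic and blue bars for normal dams and each vertical axis starting at 0. The endothelial sum of every diabetic library lies above every normal one (109 against 105 CPM at the closest), the cardiac sum is high in library 13 alone (286 CPM), and dorsal neural tube sums are low in both diabetic open libraries (374 and 404 CPM).

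Genes of the neural tube itself leaned lower. Of 21 tested genes of the dorsal neural tube and crest, 5 were above 0 and the median was -0.62, with -1.20 in open and -0.20 in closed tissue, and -0.50 without library 13. Pax3, whose loss leaves the mouse neural tube open, was at 7.59, 34.2, 139 and 50.6 CPM with diabetic dams and at 57.6, 108, 76.5 and 101 CPM with normal dams. Both diabetic open libraries were below both normal open ones, whereas closed library 15 was the highest of all. The Pax3 difference was -0.94 (SE 0.60) over both regions, -1.99 in open tissue, 0.09 in closed tissue and -0.42 without library 13. Tcfap2a (AP-2 alpha), a neural crest factor, was at 0.177, 0, 26.6 and 11.5 CPM against 13.2, 6.62, 41.8 and 24.9 CPM (-3.13, SE 1.27; -2.11 without library 13). Sox9 was at 17.6, 24.7, 77.1 and 75.2 CPM against 38.7, 64.7, 117 and 69.3 CPM (-0.79, SE 0.33). The difference between regions in the effect of dam did not pass for any of these genes, since 0 of 11779 interaction tests passed in edgeR, with 440 at an unadjusted p below 0.05.

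Of 21 tested neural progenitor genes, 7 were above 0 and the median was -0.11, and 0.07 without library 13. Pax6 was at 4.83, 40.2, 30.1 and 36.4 CPM with diabetic dams and at 46.1, 58.6, 60.5 and 64.6 CPM with normal dams, without overlap (-1.07, SE 0.52). Hes3, a repressor that keeps progenitors undifferentiated, was also lower without overlap (-1.33, SE 0.61). Sox2 differed by -0.46 (SE 0.59) with library 13 and by -0.00 without it. Vim, an intermediate filament gene of both mesenchyme and neuroepithelium, was higher without overlap (1.86, SE 0.91; 1.06 without library 13).

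Imprinted genes are expressed from 1 parental copy, and several of them control fetal growth. Of 25 listed, 19 were tested; 15 were above 0, 6 had an unadjusted p below 0.05 (Dlk1, H19, Igf2, Mest, Peg10 and Plagl1, all higher) and 2 did not overlap (Igf2 and Plagl1), against 2.97% and 2.3% of all genes on that side. The median was 0.62, with 1.52 in open tissue, 0.08 in closed tissue and 0.48 without library 13. Igf2, a fetal growth factor, was at 1874, 198, 253 and 354 CPM with diabetic dams and at 79.9, 160.4, 194 and 128 CPM with normal dams. Library 13 was far above all others, and diabetic open 14 was only just above normal closed 11. The log2 difference was 2.01 (SE 0.67) and 0.84 without library 13.

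Plagl1, a zinc finger regulator of the imprinted gene network, was at 29.4, 3.17, 0.605 and 5.31 CPM with diabetic dams and had no count with normal dams, at least 140.3-fold higher with 567 counts against 0. Library 13 holds most of these counts: without it there were 68, and the bound was 30.7-fold. The noncoding RNA H19 was at 1731, 296, 524 and 499 CPM against 124, 255, 382 and 214 CPM, and Mest was at 10192, 2931, 3970 and 2053 CPM against 1688, 1807, 2310 and 1128 CPM. For both, library 13 was the highest and the rest overlapped. The difference was 1.60 (SE 0.54) for H19 and 1.36 (SE 0.41) for Mest, and 0.73 and 0.78 without library 13. Peg10 was at 70.8, 44.5, 67.8 and 79 CPM against 14.4, 9.85, 68.1 and 38.6 CPM, a difference of 2.25 in open and 0.46 in closed tissue. Meg3, which is expressed from the maternal copy, was at 1844, 673, 359.6 and 416 CPM against 754, 1221, 741 and 791 CPM (-0.31, SE 0.36). Mesoderm markers were also highest in library 13, and their part in the imprinted values was not tested.

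Among genes of the insulin and insulin-like growth factor pathway the differences were smaller. Of 24 tested, 16 were above 0 with a median of 0.27. Igf2bp1, an RNA-binding protein of Igf2 and other messages, was at 294, 358, 235 and 278 CPM with diabetic dams and at 196, 186, 188 and 214 CPM with normal dams, without overlap and without dependence on library 13 (0.56, SE 0.18; 0.58 without it). Rptor, the subunit that defines mTOR complex 1, was lower without overlap (-0.95, SE 0.44). The receptors Igf1r and Insr differed by -0.08 (SE 0.21) and 0.17 (SE 0.29).

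Genes of the primary cilium leaned lower. The cilium transmits hedgehog signals in the neural tube, and many mouse mutants of its transition zone and transport machinery have neural tube defects. Of 47 genes listed 46 were tested: 29 were below 0, 5 had an unadjusted p below 0.05 on the lower side (Foxj1, Nphp4, Rpgrip1l, Tctn2 and Tmem216) and 4 were lower without overlap (Ift27, Nphp4, Rpgrip1l and Tctn2), where 1.58% and 1.26% of all genes tested did so. The median was -0.16, with -0.16 in open and -0.31 in closed tissue, and -0.25 without library 13. The summed level was 1109 to 1281 CPM with diabetic dams and 1303 to 1695 CPM with normal dams, without overlap. Of 45 lists, 3 had summed levels that did not overlap: endothelium and autophagy on the higher side and cilium on the lower. Among single genes tested, 3.57% did not overlap in either direction. The gap in the cilium sum was narrow, at 1281 against 1303 CPM, and the other gaps were narrow too. Whether more lists were apart than chance gives was not tested. Tctn2, a transition zone protein, was at 20.2, 36.4, 49.2 and 37.1 CPM with diabetic dams and at 65.3, 106, 70.7 and 59.3 CPM with normal dams (-1.09, SE 0.34). Rpgrip1l, its partner at the transition zone, was at 1.35, 9.63, 22.4 and 16.6 CPM against 27.8, 26.5, 41.2 and 25.4 CPM (-1.54, SE 0.64, or -1.05 without library 13). Ift27, of the intraflagellar transport train, differed by -0.50 (SE 0.24). Foxj1, the factor that drives motile cilia in the node and floor plate, was at 0, 0, 6.26 and 17.6 CPM against 12.9, 36.5, 23.6 and 43.8 CPM and overlapped (-4.36, SE 1.64; -2.86 without library 13).

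**Figure D3:**
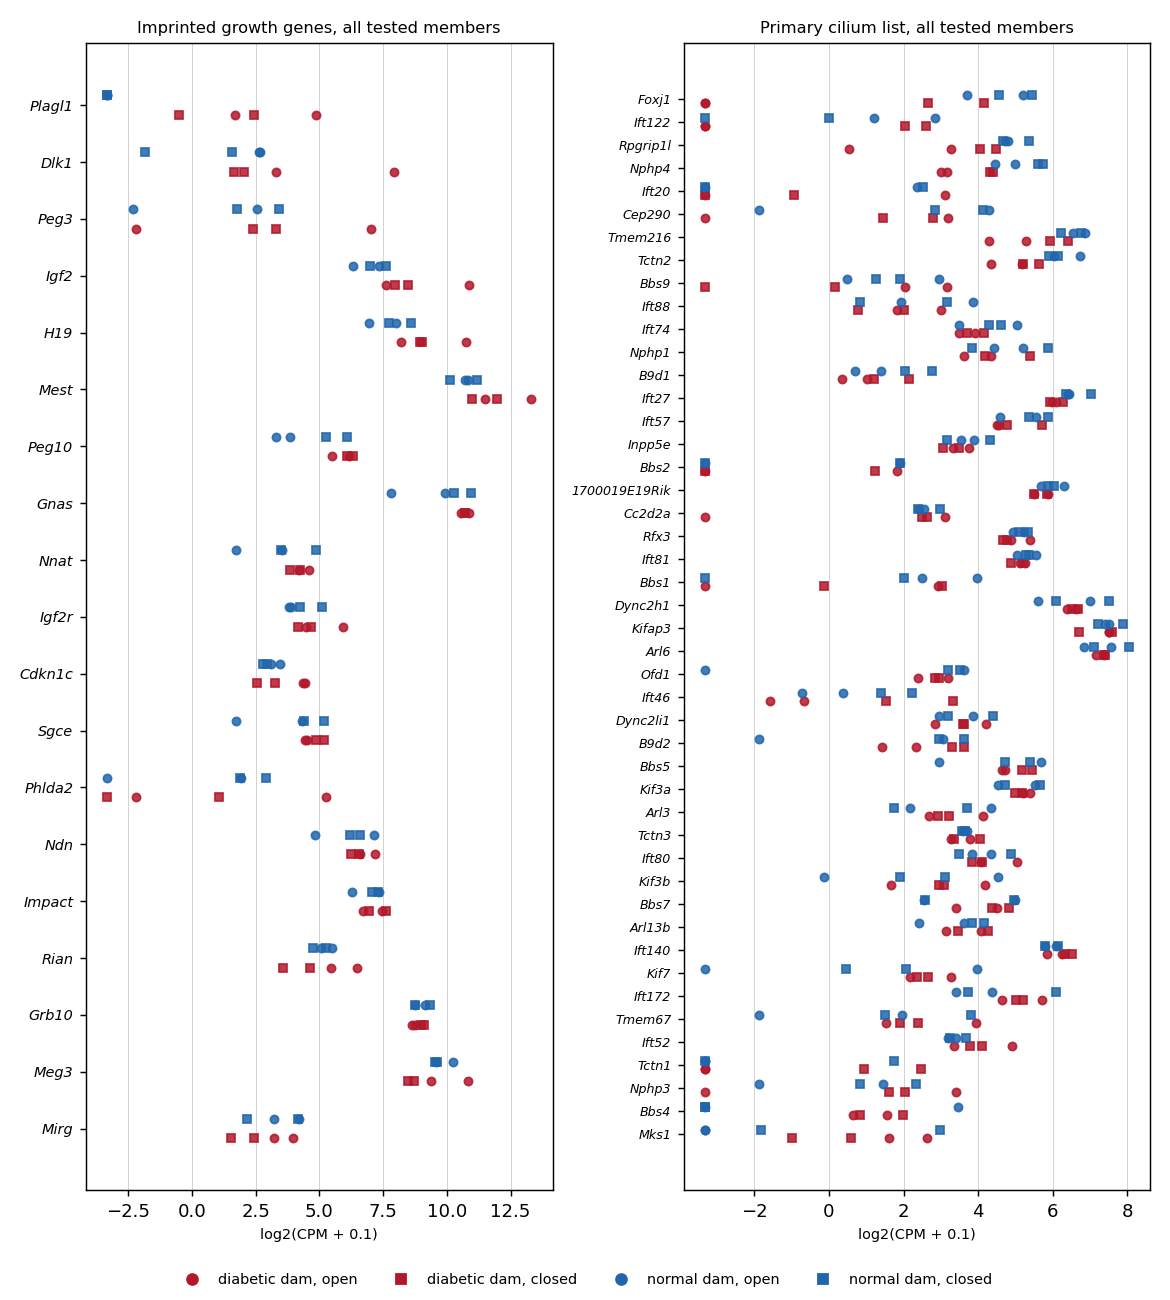
CPM of all tested members of the imprinted list (left) and the primary cilium list (right), on log2 axes after adding 0.1, ordered by log2 difference, with 1 point per library (red for diabetic and blue for normal dams, circles for open and squares for closed tissue). On the left, diabetic open library 13 lies far to the right for Dlk1, Peg3, Igf2, H19 and Mest. On the right, Nphp4, Rpgrip1l, Tctn2 and Ift27 show red points below all blue points, and most of the 46 genes overlap.

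Wnt genes also leaned lower. Of 40 tested, 14 were above 0 and the median was -0.34, between -0.39 and -0.26 over the alternatives run. Beside Ctnnb1 and Wls, the secreted inhibitor Sfrp5 was at 23.8, 112, 59.9 and 227 CPM with diabetic dams and at 150.4, 260.4, 201 and 343 CPM with normal dams. The groups overlapped (-1.26, SE 0.51, or -0.90 without library 13). Tnfrsf19, a receptor gene induced by Wnt, differed by -0.82 (SE 0.36). Ccnd1, the cyclin of the G1 phase, went the other way (0.55, SE 0.24). Summed Wnt levels were 3971 to 7430 CPM with diabetic and 5734 to 7629 CPM with normal dams.

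In the FGF list, receptors stood lower and some feedback genes higher. Fgfr4 was at 12, 57, 36.5 and 49.6 CPM with diabetic dams and at 71.2, 143, 69.2 and 113 CPM with normal dams, without overlap (-1.36, SE 0.46). Fgfr3 (-0.81, SE 0.31) and Fgfr2 (-0.57, SE 0.23) were lower with overlap, and Fgfr1 differed by -0.26 (SE 0.23). Of the feedback genes, Flrt2, a membrane partner of FGF receptors, was higher without overlap (2.45, SE 1.09). The phosphatase Dusp6 was at 45, 23.8, 23.2 and 5.45 CPM against 6.33, 6.79, 12.9 and 4.71 CPM, with overlap (1.55, SE 0.70). Genes of FGF signalling with few counts lay on both sides. Spry4 had 46 counts with diabetic and 2 with normal dams, and Etv4 had 21 and 1. Spred2 had 3 counts with diabetic and 18 with normal dams, and Etv1 had 0 and 72. Of 21 tested members of the list, 10 were above 0 and 6 had an unadjusted p below 0.05, 3 in each direction, against 2.97% of all genes higher and 1.58% lower.

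Autophagy genes leaned higher. Of 27 tested, 18 were above 0 with a median of 0.30, 4 had an unadjusted p below 0.05 (Gabarap, Lamp1, Map1lc3a and Pik3c3, all higher), 3 of these did not overlap, and Atg16l1 was lower without overlap. Of all genes, 2.97% had such a p and 2.3% did not overlap on the higher side. The summed level was 1363 to 1795 CPM with diabetic dams and 1069 to 1358 CPM with normal dams. Lamp1, a protein of the lysosomal membrane, was at 80.4, 54.5, 50.7 and 52 CPM with diabetic dams and at 28.7, 35, 25.8 and 29 CPM with normal dams (1.00, SE 0.28). Gabarap, which is coupled to lipid on autophagosomes, was at 531, 442, 448 and 318 CPM against 117, 159, 318 and 213 CPM (1.17, SE 0.30), touching at closed library 16 and normal closed 11. Pik3c3, the lipid kinase that starts autophagosome formation, was at 20.8, 24.3, 28.7 and 11.5 CPM against 4.32, 6.45, 2.54 and 9.73 CPM (1.88, SE 0.64). Map1lc3b, the usual autophagosome marker, differed by -0.11 (SE 0.29).

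Genes of the unfolded protein response other than Trib3 stood near the median of all genes. Of 27 tested, 17 were above 0 and the median was 0.08. The chaperone Hspa5 was at 1510, 1030, 1013 and 926 CPM with diabetic dams and at 992, 990, 919 and 1213 CPM with normal dams, with overlap (0.11, SE 0.19), and Hsp90b1 differed by -0.20 (SE 0.16). Chac1, another gene induced by amino acid shortage and picked here with its values known, was not tested: it had 39 counts, all in normal open library 10.

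Antioxidant genes leaned slightly higher. Of 32 tested, 22 were above 0 with a median of 0.14, 1 had an unadjusted p below 0.05 (4.55% of all genes) and none was free of overlap (3.57% of all genes). That gene, Gsta4, a glutathione transferase for lipid peroxidation products, was at 34.7, 92.6, 58.1 and 74.7 CPM with diabetic dams and at 28.7, 20.4, 18.3 and 38.6 CPM with normal dams (1.30, SE 0.39). The dismutase Sod1 differed by 0.25 (SE 0.24). Cat, the catalase gene, was at 4.77, 4.23, 6.66 and 4.61 CPM against 0.704, 23.6, 11.3 and 8.21 CPM (-1.11, SE 1.00).

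Slc2a2, the GLUT2 gene, had 0 counts in all 8 libraries. Its annotated transcripts hold 7 to 26 CATG sites each, but only the site nearest the 3′ end is expected to give a tag. Of the 26608 genes listed, 11446 had no count in any library, Myl6 and Smarca5 among them. Whether the 0 for Slc2a2 reflects absent RNA or the way tags were assigned to genes was not tested. The main glucose transporter gene with counts, Slc2a1 (GLUT1), was at 168, 509, 479 and 449 CPM with diabetic dams and at 459.9, 595, 442 and 549 CPM with normal dams; library 13 was lowest, and the difference was -0.37 (SE 0.30) and -0.08 without it. Txnip, a gene induced by glucose, was at 7.53, 16.9, 3.43 and 3.64 CPM against 2.82, 2.55, 8.54 and 3.34 CPM (0.72, SE 1.12), higher in open and lower in closed tissue. In glycolysis, Slc16a3, the lactate exporter MCT4, was at 209, 298, 234 and 186 CPM against 25.4, 113, 135 and 54.4 CPM, without overlap (1.52, SE 0.44). The enolase Eno3 was also higher without overlap (1.51, SE 0.47), while Ldha differed by -0.14 (SE 0.26) and the list median over 20 genes was 0.11.

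Of 42 tested genes of actin, myosin and apical constriction, 25 were above 0 and the median was 0.14, and -0.03 without library 13. Rock2, the kinase that activates myosin during apical constriction, was at 65.3, 76.9, 54.9 and 57.2 CPM with diabetic dams and at 41.5, 39.9, 36.9 and 41.2 CPM with normal dams. Its groups were apart, and the difference was 0.66 (SE 0.25) and 0.68 without library 13. Arpc2, of the actin-branching complex, was at 144, 136, 131 and 144 CPM against 94.5, 101, 64.7 and 119 CPM (0.55, SE 0.23), and the tropomyosin Tpm4 differed by 1.05 (SE 0.36, or 0.71 without library 13), both without overlap. Rhob was also higher without overlap (0.58, SE 0.45). Grlf1 was lower without overlap, at 38.7, 25.5, 30.5 and 49.5 CPM against 50, 55.9, 51.8 and 50.6 CPM (-0.54, SE 0.30). In the matrix list, Sparc (1.41, SE 0.43) and the integrin subunit Itgb1 (0.63, SE 0.21) were higher without overlap, the latter at 279, 266, 162 and 188 CPM against 134, 138, 133 and 159 CPM.

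Genes whose mouse mutants have open neural tubes lay on both sides of 0. Of 83 tested, 40 were above 0 (48.2%, against 52.7% of all genes), and the median was -0.04. Twist1, Pdgfra and Trp53 were among those higher, and Tcfap2a, Pax3 and Gli3 among those lower. Tead2, a DNA-binding partner of Yap, was at 175, 164, 192 and 154 CPM with diabetic dams and at 77.9, 133, 72.5 and 13.4 CPM with normal dams, without overlap (1.34, SE 0.48). Gli3, the hedgehog repressor, was at 67.6, 53.8, 53.7 and 65.6 CPM against 78.4, 81.4, 101 and 82.8 CPM, without overlap (-0.51, SE 0.23). Vangl2, a core gene of planar polarity, stood at 9.53, 7.64, 13.7 and 8.95 CPM against 6.54, 28.5, 10.4 and 18.7 CPM (-0.69, SE 0.65), and Cited2 differed by 0.31 (SE 0.36). The actin-severing gene Cfl1, the most abundant of the list by counts, differed by -0.15 (SE 0.16).

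Among stress and cell death genes, Trp53 was at 78.5, 73.8, 53.3 and 41.8 CPM with diabetic dams and at 15.4, 51.5, 33.2 and 24.2 CPM with normal dams (0.96, SE 0.38), overlapping at closed library 16. Casp9, the initiator caspase of the mitochondrial pathway, was at 9.65, 10.2, 8.48 and 11.9 CPM against 0, 4.93, 2.36 and 3.04 CPM, and the death receptor gene Tnfrsf10b at 11.4, 9.98, 5.05 and 3.5 CPM against 1.81, 0.34, 0.182 and 0.456 CPM, both without overlap. Bcl2, which blocks that pathway, was higher without overlap too (1.51, SE 1.02). Over 35 tested genes of the p53 and cell death list, 21 were above 0 and the median was 0.28. In one-carbon metabolism, Mthfd2, a mitochondrial folate enzyme, was at 10.9, 25.8, 20.6 and 9.51 CPM against 8.65, 6.62, 1.82 and 0 CPM, without overlap (2.58, SE 1.13; 3.17 without library 13), and the list median over 28 genes was -0.05.

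Several lists stood at the median of all genes. Subunits of oxidative phosphorylation had a median of 0.02 over 62 genes, planar polarity genes -0.03 over 26 and Polycomb, SWI/SNF and histone modifier genes 0.00 over 43. Hox genes, which set position along the body axis, stood higher: 14 of 16 were above 0 with a median of 1.57, and 0.74 without library 13, while their summed levels overlapped (532 to 840.3 CPM with diabetic and 647 to 779.9 CPM with normal dams).

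**Figure D4:**
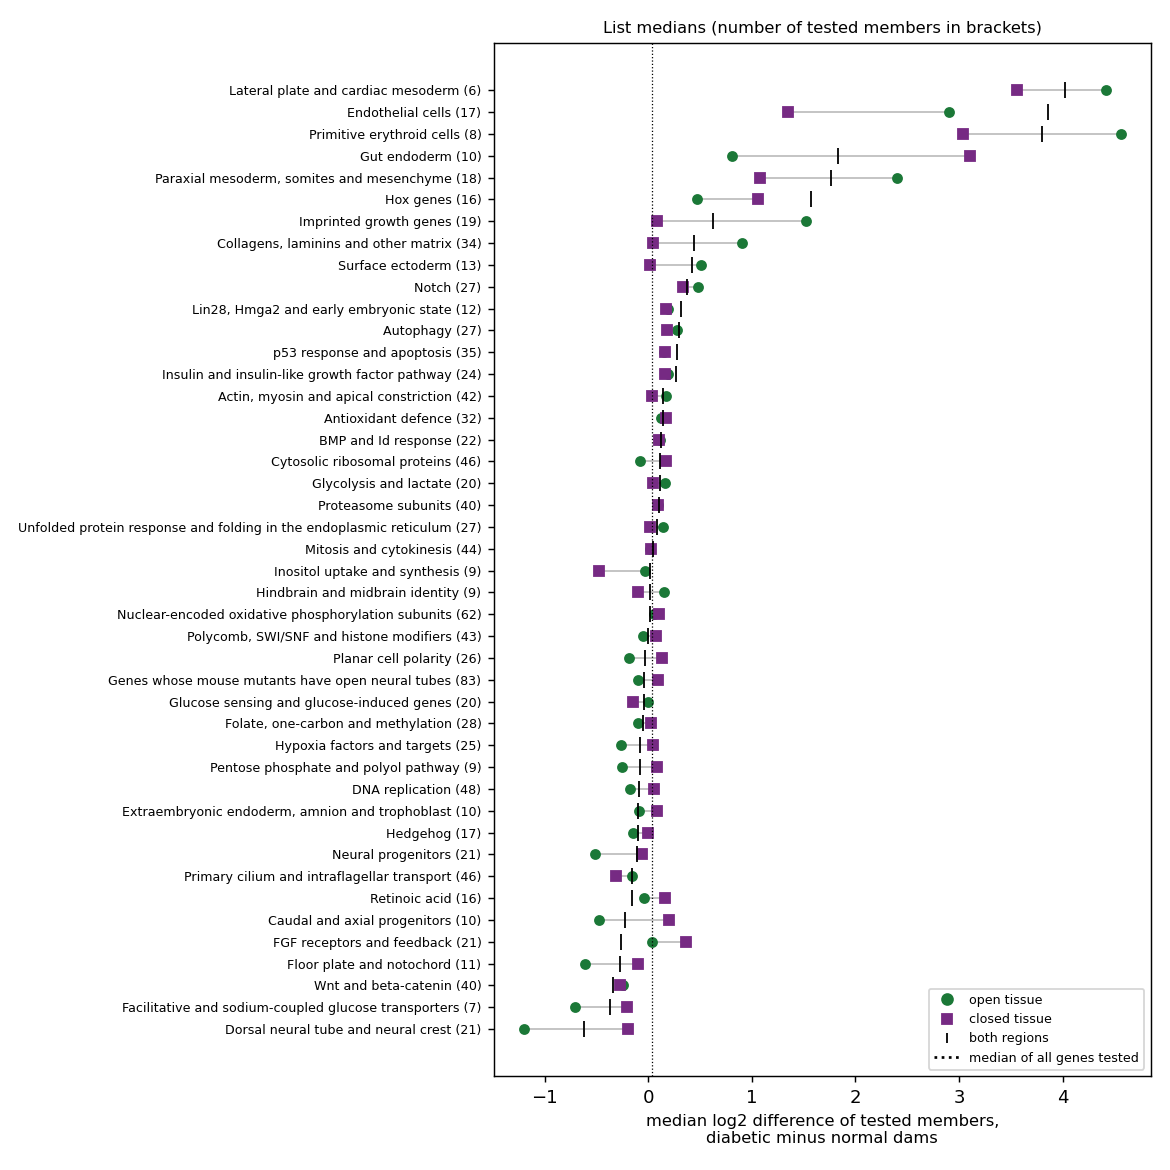
Median log2 difference (diabetic minus normal dams) over the tested members of 44 gene lists, in open tissue (circles), closed tissue (squares) and both (bars), with the number tested in brackets and the median of all genes (0.04) as a dotted line. Lateral plate, endothelial, red cell, gut endoderm and paraxial lists lie farthest to the right, dorsal neural genes lie farthest to the left, and most metabolic and stress lists lie close to the line.

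The open and the closed comparison share no library, but the labels do not say whether they share embryos or litters. Their agreement is therefore described only, and is not a repeat in animals known to be separate. Over all genes tested the 2 differences had the same sign in 6406 of 11779 (54.4%), in 56.4% of 6485 genes with a mean of at least 100 counts and in 58.1% of 1525 with at least 1000. Among 32 genes with a mean of at least 100 counts and a closed difference of at least 2 in size, the sign in open tissue was the same for 27: 18 of the 19 that were higher in closed tissue and 9 of the 13 that were lower. The count minimum was taken over all 8 libraries. Genes such as Gata4, Gata6 and Cyp26b1 passed it through library 13, where they are high, which also fixes their sign in open tissue. With the minimum taken over the 4 closed libraries alone, a choice made after the data were seen, there were 16 genes and 15 had the same sign, 8 of 8 on the higher and 7 of 8 on the lower side. The lower ones include Xist, Tsix and Zfp598. Of the 32 genes, those higher in closed tissue included Tek, Gata4, Hba-x and Il17rd (4.79 in closed and 3.75 in open tissue) from above. Of these, Hba-x alone is also among the 16. Of the genes that follow here, Sepp1 and Meox2 are among the 16 and Cd93 is not. Cd93, an endothelial surface protein, was at 49.5, 18.2, 8.27 and 22.9 CPM with diabetic dams and at 6.03, 0.17, 4.36 and 0.152 CPM with normal dams, without overlap. Sepp1, which encodes a secreted selenium carrier, was at 97.1, 42.2, 102 and 35.1 CPM against 4.32, 0.17, 27.8 and 4.1 CPM, also without overlap. Meox2, a homeobox gene of somites and vessels, was at 126, 0, 70.4 and 39.4 CPM against 0, 23.1, 16.9 and 9.57 CPM, with open library 14 at 0.

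Lower in both regions were Ctnnb1, Xist, Zfp598 and Zfp367, a zinc finger gene at 3.53, 0, 2.42 and 12.6 CPM with diabetic dams and at 17.5, 17.5, 20.5 and 58.1 CPM with normal dams, without overlap. Among the 5 with opposite signs, Alx1, a mesenchymal homeobox gene, was at 63, 0, 0 and 1.26 CPM against 4.83, 0, 0 and 5.62 CPM. Its high open value is that of library 13. Normal libraries with Xist occur in both regions, and summed endothelial levels were higher with diabetic dams in both. Their part in the agreement was not tested.

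**Figure D5:**
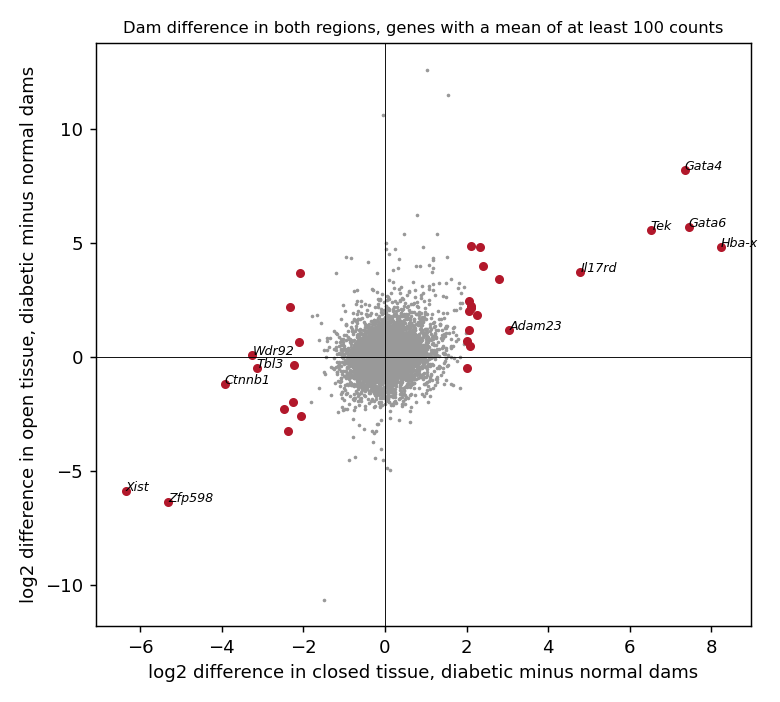
Log2 difference between diabetic and normal dams in open tissue (vertical) against closed tissue (horizontal), with 1 point per gene for the 6485 genes with a mean of at least 100 counts. Red points mark the 32 genes with a closed difference of at least 2 in size; 27 of them lie in the upper right or lower left quadrant.

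The 37 genes called by DESeq2 include many of those above: Tek, Rps7, Zfp598, Il17rd, Hmgb2, Gata4, Plagl1, Fst and Rpa2 were among them. In 25 of the 37 the dam groups did not overlap, against 3.57% of all genes tested. The 37 were chosen by their p in these same libraries, so this describes them and tests nothing. Others, named after their values were seen, were Dkc1, the pseudouridine synthase mutated in dyskeratosis congenita (26.7, 71.7, 58.1 and 31.2 CPM with diabetic dams and 9.15, 14.1, 10.9 and 15.7 CPM with normal dams, without overlap), and Slit1, an axon guidance gene (0, 0, 4.64 and 8.67 CPM against 26, 30.6, 12.9 and 15.7 CPM). Without library 13 DESeq2 called 26. None of these passed in edgeR's quasi-likelihood test or limma-voom.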

How the data were processed

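Gene counts of 8 SOLiD SAGE libraries were analysed. The authors deposited unnormalized tag counts for each gene symbol, 1 file per library. Per the submitters' processing notes the build was mm9. Not given in the sources used here are the aligner, counting program, annotation release, treatment of tags that match several genes and use of strand. Ribosomal protein genes, other genes with near-identical copies and overlapping genes are therefore uncertain.

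Groups came from the sample labels. Files list 26608 genes; 15162 had counts in some library. In R 4.3.3, edgeR 4.0.16 kept 11779 genes (filterByExpr with the 4 groups; at least 10 counts, total of at least 15) and scaled libraries by TMM. Dam was tested with region as covariate by the quasi-likelihood F test, and the interaction in a model of the 4 groups, with a Benjamini-Hochberg adjusted p below 0.05 over all genes tested. Levels are CPM on scaled library sizes, and log2 differences are diabetic minus normal. Bounds against a group without counts use 3 counts over that group, and ratios with 1 to 3 counts have exact 95% intervals; both cover counting error only.

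Members of 45 gene lists, the lists and the tests were chosen with earlier results of these data known. The rule named the 12 genes with the smallest p in each direction (mean of at least 10 counts), the 6 per direction with the widest gap on log2(CPM + 1), the 2 smallest p and 2 highest counts per list, and Pax3, Slc2a2, Txnip, Sod1, Cat, Vangl2, Cited2, Sox2, Xist and Ddx3y. Other named genes were picked after their values were seen, from those with an unadjusted p below 0.05, without overlap or with a role in the list described. Alternatives were DESeq2 1.42.0, limma 3.58.1 (voom, with and without sample weights), robust fitting, other scalings and filters, an Xist or Y-linked covariate, no region term and each library left out. The tests were tested on simulated counts. Tags were predicted from GENCODE vM21 on GRCm38.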

Additional observations from a re-analysis of the deposited data

Results flagged for a closer look

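In groups of 4 libraries, 84 gene and dam combinations were checked for 1 library far from the other 3, and 5 stood out, about what chance gives at 1 in 20. Tek was at 2.61 CPM in normal open library 9 and at 0 to 0.152 CPM in the other normal libraries. Hba-x was at 62.7 CPM in the same library and at 0.304 to 1.02 CPM in the others. Grb14 was at 15.1 CPM in normal open library 10 and at 5.17 to 5.73 CPM in the others. Slc7a7 was at 0.17 CPM in normal open library 10 and Muc1 at 0.14 CPM in diabetic closed library 16, each a single count where the rest of the group had none.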

How the results depend on the processing

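No gene passed for dam in edgeR under robust fitting, RLE or upper quartile scaling, the stricter filter, no region term, the 4-group mean, the 6 Y-linked libraries alone, or any library left out (0 to 0), nor in limma-voom. It was 37 in DESeq2, 26 in DESeq2 without library 13, 89 (62 higher, 27 lower) with no low-count filter and 2 (Naca and Ube2g2) with the Xist or Y-linked covariate. The Y-linked libraries alone and DESeq2 without library 13 were chosen after seeing the data. The interaction gave 0, but 24 in DESeq2, 1 in limma-voom with or without weights (Pdcd6), 23 with no filter, and 0 to 4 with a library left out; the 4, without diabetic open library 14, were E2f2, Kbtbd11, Msx3 and Pdcd6. Genes without overlap numbered 420, 427 on raw totals, 289 of 7756 under the stricter filter, 640 to 923 with a library left out and 1960 in the 6 Y-linked libraries, the last 2 because fewer libraries must be separated. Of the 35 genes chosen by p or gap, Xist alone took the other sign under an alternative. Of 45 list medians, 19 kept their sign under every alternative. Leaving out a library moved several fold limits by over 1.5 times. Without normal open library 9 the bounds were 25-fold for Trib3, 24.4-fold for Inpp5b and 22.8-fold for Mgat4b, and the ratios 36.3 for Fxyd6 and 60.7 for Slc7a7. Without normal open library 10 or normal closed 11 the Fxyd6 ratio was 89 and 90.6. Without the library that holds its single count, Slc7a7 was at least 24.8-fold higher (normal open 10) and Muc1 at least 32.4-fold lower (diabetic closed 16), and without diabetic open 13 the Muc1 ratio was 65.7. The Gata4 ratio was 871 without normal open 10. The Epor bound was 20.7-fold without diabetic open 13 and 58.6-fold without normal open 9, and the Plagl1 bound was 90.3-fold without the latter. No paired analysis was possible because the library numbers 9 to 16 each occur in 1 group only. Below a mean of 100 counts the median standard error of 1.76 leaves most differences undetectable at this depth and spread.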
